A study of Mus musculus with 6 samples.

Results

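Blood flow sets the transcriptional state of endothelial cells (ECs), and 9 genes through which ECs read flow and adjust vessel tone were followed here in ECs of the mouse spinal cord. They are the Krüppel-like factor genes *Klf2*, *Klf4* and *Klf6*, the vasoactive genes *Nos3*, *Edn1*, *Ece1*, *Ednrb* and *Ace*, and *Piezo1*. The 9 genes were chosen by symbol from the 56748 genes of the count table, each symbol matched 1 row, and all 9 passed the filter on low counts that left 13107 genes to test. The data are RNA-Seq libraries of sorted spinal cord ECs at P16, 1 per sample. The sources used here do not say whether a sample is 1 mouse or several, so p-values measure the spread between these samples, which may be technical in part. The 3 control samples came from mice that carried Tardbpflox, a *Tardbp* gene (encoding the RNA-binding protein TDP-43) with loxP sites around exon 3, and no Cre. The 3 *TDP-43 iΔEC* samples, called mutants here, came from Cdh5(PAC)-CreERT2;Tardbpflox mice, in which the *Cdh5* promoter drives an inducible Cre in ECs. Both groups received tamoxifen (1 mg/mL) from P5 to P7, and the study used mice of both sexes. Gene-level counts include transcripts that lack exon 3. No flow or pressure was measured in these animals, so "flow-responsive" is the known property of the genes and not a condition of the samples.

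Laminar shear stress is sensed at the EC surface by channels such as Piezo1 and by junctional complexes, and a kinase cascade ending in ERK5 and the MEF2 factors then switches on *KLF2* and *KLF4*. These factors raise endothelial nitric oxide synthase and thrombomodulin and hold down endothelin-1, which keeps vessels relaxed and the vessel wall quiet. Endothelin-1 is made as a precursor that endothelin-converting enzyme cleaves, and angiotensin-converting enzyme produces the constrictor angiotensin II and breaks down bradykinin. *KLF6*, a factor of the same family, is induced rapidly after vascular injury.

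Library totals lay between 44041329 and 47270654 counts in controls, and at 45010088, 28228980 and 25704871 in mutants 1, 2 and 3. *Tardbp* had 1973, 2282 and 2069 normalized counts (counts divided by the size factor of the library) in controls 1, 2 and 3, and 982, 599.9 and 433 in mutants. All mutant libraries lay below all control libraries, and the log2 fold change, or log2 change (mutant over control throughout) was -1.62 (standard error [SE] 0.41, adjusted p = 0.287, limma with Benjamini-Hochberg adjustment; 0.00188 with DESeq2). All 6 defining EC genes were abundant, *Cldn5* at 178856 to 283980 and *Cdh5* at 5635 to 6745 normalized counts per library. The 18S ribosomal RNA gene took 14.8% to 18.5% of the counts in control libraries and 8.04% to 13.6% in mutant libraries, with no overlap. Mutant 1 was the only library with counts of Y-linked genes and none of *Xist*, so sex was not balanced between the groups. Of 4 capillary markers, *Mfsd2a*, *Slc16a1* and *Car4* were lower in every mutant library, and *Rgcc* overlapped between the groups. The 4 capillary markers summed to 315028 ± 38443 normalized counts in controls and 182694 ± 30559 in mutants (SD, n = 3 samples each). The 5 erythroid markers, hemoglobin genes and *Alas2*, summed to 303413 ± 62662 and 87070 ± 16698 (SD, n = 3 samples each), with no overlap for any of the 5 and 4 past the adjusted threshold. Of all tested genes, 7.10% were lower in every mutant library than in every control library. A share of 0.107% was lower in mutants at an adjusted p under 0.05 (limma). Oligodendrocyte markers summed to 10558 to 20929 normalized counts in controls and to 16978, 2001 and 572 in mutants 1, 2 and 3, and neuron markers to 183 to 424 in controls and 27.4 to 73.5 in mutants. In sorted cells, a smaller share of one cell type and less RNA of that type per cell cannot be told apart.

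None of the 9 genes passed an adjusted p of 0.05 in limma, against 0.137% of all tested genes (0.0305% higher and 0.107% lower in mutants). An unadjusted p under 0.05 was found for 1 of the 9, *Klf6*, or 11.1% against 9.27% of all genes, and with edgeR's quasi-likelihood test and DESeq2's Wald test 0 passed the adjusted threshold and *Klf6* alone had an unadjusted p under 0.05. In normalized counts the 2 groups did not overlap for *Klf2* and *Klf6*, 2 of 9 genes or 22.2% against 15.0% of all genes. The *Klf2* groups overlapped when counts were taken relative to library totals. *Klf2* was lower and *Klf6* higher in mutants. Of the 9 genes, 5 had a log2 fold change above 0 and 4 below, with a median of 0.03 beside -0.02 for all tested genes. With libraries scaled to 5 EC genes (the sum of *Pecam1*, *Cldn5*, *Kdr*, *Flt1* and *Vwf*) these were 7 and 2, with a median of 0.28 beside 0.23 for all genes. The scaling genes themselves had log2 fold changes of 0.14, -0.22, -0.26, -0.69 and -0.09 in that order (limma). *Kdr* and *Flt1* were lower in every mutant library than in every control library. An exact permutation test of 3 samples against 3 cannot go below p = 0.1, the value that *Klf2* and *Klf6* reached, and the other 7 genes had p of 0.2 to 0.9.

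**Figure D1:**
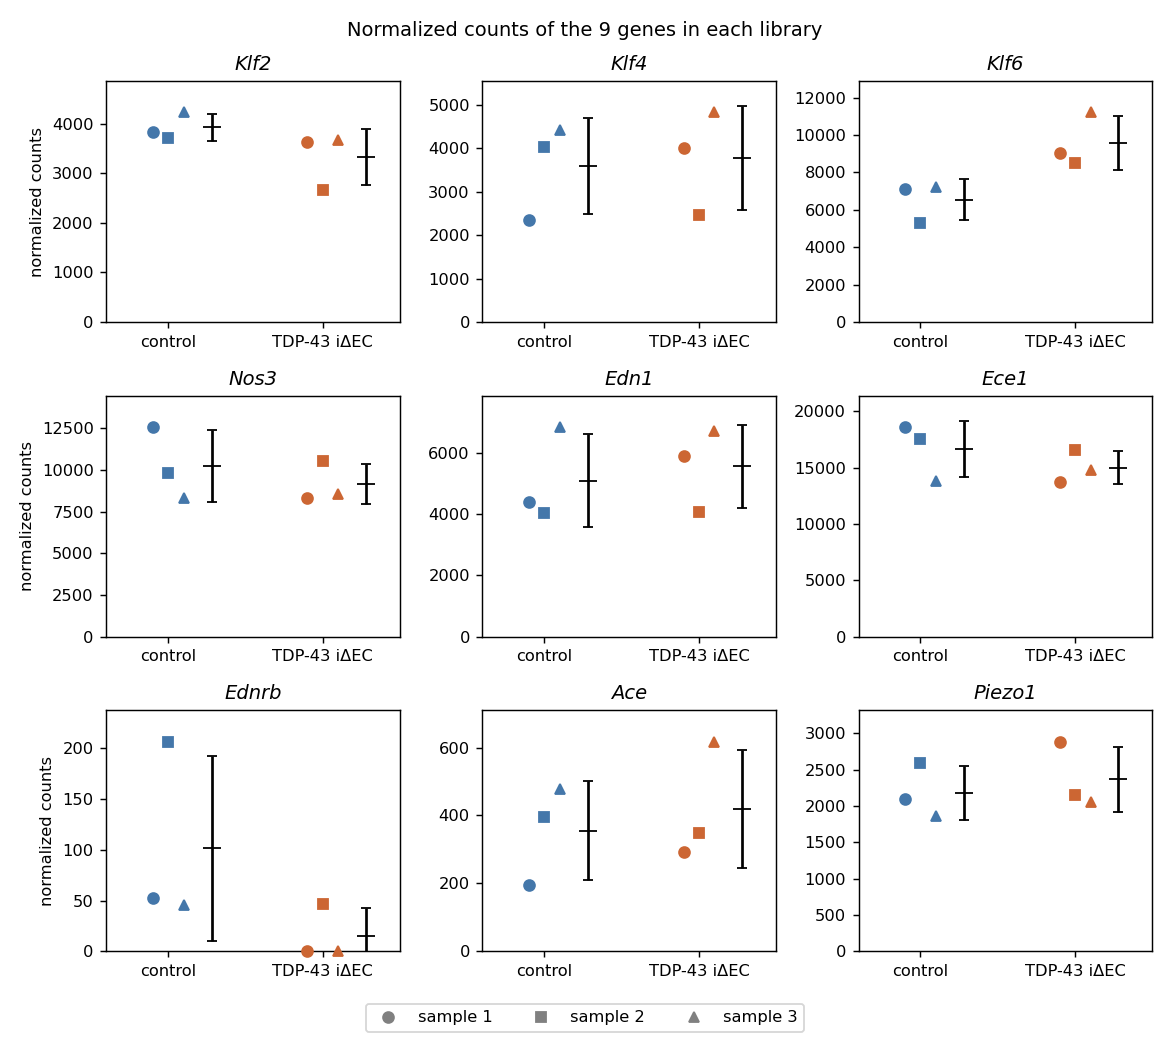
Normalized counts (vertical axes, each from 0) of the 9 genes in every library, with control mice on the left and TDP-43 iΔEC mice on the right of each panel, 1 symbol per sample, and the mean with its SD beside them (n = 3 samples, bars cut at 0). The groups are apart for Klf2 and Klf6 and overlap for the other 7 genes.

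*Klf2*, the factor most closely tied to laminar flow (chromosome 8 of GRCm39 from 73072726 to 73075502, forward strand), had 3837, 3707 and 4224 normalized counts in controls 1, 2 and 3 and 3639, 2669 and 3673 in mutants 1, 2 and 3. In normalized counts the groups did not overlap, but only a small step parted control 2 from mutant 3, and mutant 2 alone was clearly low. Relative to library totals, control 2 lay below mutants 1 and 3, so the groups overlapped on that scale. The means were 3923 ± 269 and 3327 ± 570 (SD, n = 3 samples each), a log2 change of -0.28 (SE 0.23, 95% interval -0.81 to 0.25, adjusted p = 0.707, limma). The log2 change was -0.087 with scaling by library size only and -0.046 with scaling to 5 EC genes.

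*Klf4*, which shares many targets with *Klf2* (chromosome 4 from 55527139 to 55532528, reverse strand), had 2342, 4016 and 4419 normalized counts in controls and 4013, 2464 and 4821 in mutants. Each group held 1 low library, control 1 and mutant 2, and the other 4 libraries lay together above them. The log2 change was 0.03 (SE 0.34, 95% interval -0.74 to 0.80, adjusted p = 0.989, limma). Its sign hung on single samples, being -0.25 without control 1, -0.08 without mutant 1 and -0.11 without mutant 3.

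*Klf6* (chromosome 13 from 5911481 to 5920393, forward strand) had the clearest difference of the 9 genes. It had 7117, 5285 and 7236 normalized counts in controls and 9028, 8502 and 11208 in mutants. Every mutant library exceeded every control library, as in 7.93% of all tested genes. The means were 6546 ± 1094 and 9579 ± 1435 (SD, n = 3 samples each), a log2 change of 0.50 (SE 0.21, 95% interval 0.02 to 0.98), or 1.41-fold (95% interval 1.01 to 1.97). The unadjusted p was 0.0424 and the adjusted p 0.522 (limma), so *Klf6* did not pass the test over all genes. Leaving out each sample in turn gave log2 fold changes of 0.33 (without control 2) to 0.59 and unadjusted p of 0.0452 to 0.150 (limma).

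In the 3 factors the log2 change was below 0 for *Klf2*, near 0 for *Klf4* and above 0 for *Klf6*. The ratio of *Klf6* to *Klf2* was 1.85, 1.43 and 1.71 in controls and 2.48, 3.19 and 3.05 in mutants, while the ratio of *Klf4* to *Klf2* was 0.610, 1.08 and 1.05 against 1.10, 0.923 and 1.31. The first ratio did not overlap between the groups and the second did. The first could not overlap, because in normalized counts *Klf6* was higher and *Klf2* lower in every mutant library than in every control library. It therefore adds nothing to the values of those genes, and its smallest possible p was fixed as well. Both ratios were among 7 that were chosen after the values had been seen, so their tests are no independent evidence. The exact two-sided permutation test gave p = 0.1 for the first (the smallest it can give, 0.35 adjusted over the 7 ratios) and p = 0.4 for the second (adjusted 0.56). The ratio of *Klf6* to *Klf4* had p = 0.3 in that exact test (adjusted 0.525).

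The promoters of the 3 factors are shown because the MEF2 element is the textbook link between flow and *Klf2*. The 250 bases before the start of each gene (RefSeq, GRCm38.p6, another build than the GRCm39 of the counts, 5′ to 3′ on the strand of the gene) were searched on both strands for 4 motifs, the MEF2 element (CTA, any 4 bases, TAG), the CACCC box that KLF proteins bind, the AP-1 site TGANTCA and the GATA site AGATAA. Matches are in capitals, and no 2 motifs overlapped in the promoters shown. A match is a description of the letters and not a shown binding site. The windows are chr8:72318812-72319061 (forward strand) for *Klf2*, chr4:55532476-55532725 (reverse) for *Klf4* and chr13:5861239-5861488 (forward) for *Klf6*.
Klf2: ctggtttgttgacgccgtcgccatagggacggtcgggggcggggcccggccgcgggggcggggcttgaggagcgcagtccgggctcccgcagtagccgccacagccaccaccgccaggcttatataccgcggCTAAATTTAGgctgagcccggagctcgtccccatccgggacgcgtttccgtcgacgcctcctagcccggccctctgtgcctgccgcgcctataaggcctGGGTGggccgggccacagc
Klf4: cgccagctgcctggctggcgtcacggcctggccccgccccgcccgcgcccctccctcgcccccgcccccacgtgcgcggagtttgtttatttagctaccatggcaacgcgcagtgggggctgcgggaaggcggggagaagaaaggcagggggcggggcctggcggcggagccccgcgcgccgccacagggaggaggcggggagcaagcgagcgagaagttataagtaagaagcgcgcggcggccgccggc
Klf6: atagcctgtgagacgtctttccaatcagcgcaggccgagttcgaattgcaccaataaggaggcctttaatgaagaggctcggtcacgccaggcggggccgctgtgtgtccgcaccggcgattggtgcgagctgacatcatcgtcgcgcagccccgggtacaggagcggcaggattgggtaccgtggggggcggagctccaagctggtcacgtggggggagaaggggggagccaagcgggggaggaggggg
The *Klf2* window held a MEF2 match 118 to 109 bases before the start, a motif found in 3.2% of the 32851 promoters of this length, and a CACCC box on the opposite strand 19 to 15 bases before it, a motif found in 52% of promoters. Neither the *Klf4* nor the *Klf6* window held any of the 4 motifs, of which AP-1 was found in 6.75% and GATA in 9.99% of promoters.

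The sorting began with collagenase digestion of the tissue, and immediate early genes are commonly induced by such handling. They were therefore read beside the KLF genes. All 15 genes of an immediate early and dissociation list were tested, and all 15 had log2 fold changes above 0 (median 0.45, beside -0.02 for all tested genes). None passed the adjusted threshold in limma, and 5 had an unadjusted p under 0.05 (the share of all genes called higher at that level was 4.26%). *Hspa1a*, an inducible heat shock protein gene that shares sequence with its near copy *Hspa1b*, had the highest mean of the list, 23898 ± 4893 normalized counts in controls and 42036 ± 6221 in mutants (SD, n = 3 samples each), with a log2 change of 0.77 (SE 0.19, adjusted p = 0.271, limma). The stress-induced factor gene *Atf3* had 0.61 (adjusted p = 0.399) and *Ier3* 0.94 (adjusted p = 0.396). DESeq2 alone called these 3 genes, with adjusted p of 0.0132, 0.0381 and 0.0420, and edgeR called none of the list. All 15 genes also lay above 0 under each other scaling, with medians of 0.49 to 0.68. Exons of other genes lie opposite 34.8% of the exonic bases of *Ier3* and 19% of those of *Hspa1a*.

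The sum of the 15 genes was 146111, 119164 and 147209 normalized counts in controls and 188492, 159427 and 214137 in mutants. The groups did not overlap, and the libraries stood in the same order as for *Klf6*, with control 2 lowest and mutant 3 highest in both. *Klf6* equalled 4.87%, 4.43% and 4.92% of this sum in controls and 4.79%, 5.33% and 5.23% in mutants, so that the groups overlapped on this scale (exact permutation test, p = 0.3, adjusted 0.525 over the 7 ratios). *Klf2* equalled 2.63%, 3.11% and 2.87% against 1.93%, 1.67% and 1.72%, with no overlap (same exact test, p = 0.1, adjusted 0.35). This lack of overlap and its p were fixed in advance, because in normalized counts *Klf2* was lower and the sum higher in every mutant library. The part of the 15 genes in the *Klf6* and *Klf2* values was not tested.

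**Figure D2:**
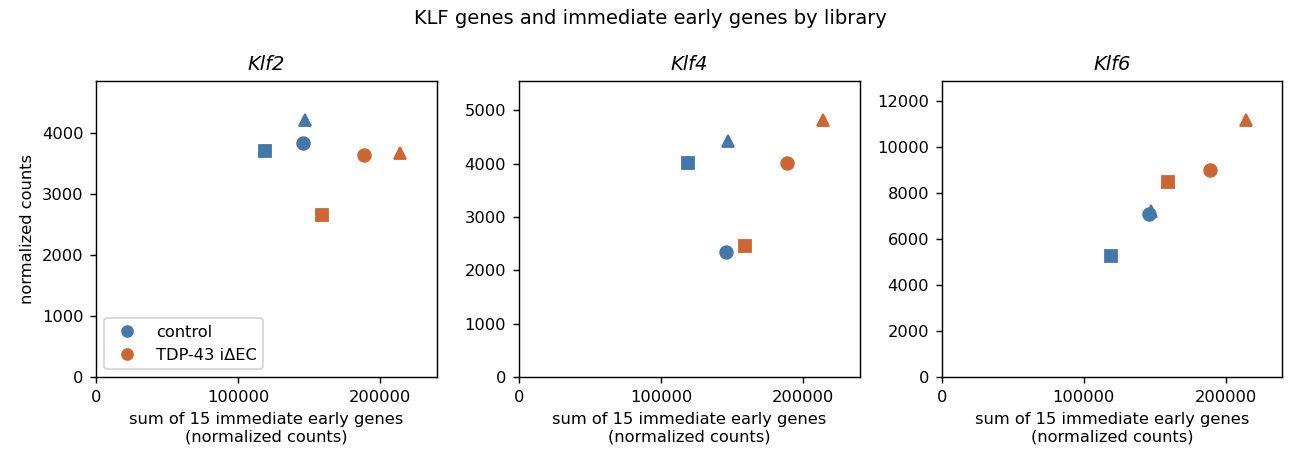
Normalized counts of Klf2, Klf4 and Klf6 (vertical axes, from 0) against the sum of 15 immediate early and dissociation genes (horizontal axes, normalized counts) in the 6 libraries, with the symbol giving the sample number. Control libraries sum to 119164 to 147209 and TDP-43 iΔEC libraries to 159427 to 214137, and Klf6 is higher in libraries with a higher sum.

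Among the vasoactive genes, *Nos3*, which encodes endothelial nitric oxide synthase (chromosome 5 from 24569787 to 24589475, forward strand), had 12572, 9832 and 8338 normalized counts in controls and 8338, 10511 and 8566 in mutants. The control libraries alone spanned nearly the whole range, and the groups overlapped. The log2 change was -0.20 (SE 0.21, 95% interval -0.67 to 0.27, adjusted p = 0.772, limma) and turned to 0.035 when libraries were scaled to 5 EC genes. *Nos3* followed *Cldn5* closely, at 4.43%, 4.35% and 4.45% of the *Cldn5* count in controls and 4.66%, 4.36% and 4.31% in mutants (exact permutation test, p = 0.9, adjusted 0.9 over the 7 ratios). *Cldn5* was the closest of 7750 genes to *Nos3* in pattern, and the most abundant of the 5 EC genes used for scaling. The ratio, its test and the scaled *Nos3* value are therefore no independent evidence. Annotated exons of *Atg9b* and *Gm15587* lie opposite 32.7% of its exonic bases, and the counting did not use strand. These neighbours had 0 to 54 and 142 to 402 counts per library.

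*Edn1*, the gene of the constrictor peptide endothelin-1 (chromosome 13 from 42446301 to 42461466, forward strand), had 4411, 4036 and 6844 normalized counts in controls and 5894, 4079 and 6711 in mutants. Differences between samples of each group were larger than the difference of the means, 5097 ± 1524 and 5561 ± 1347 (SD, n = 3 samples each). The log2 change was 0.09 (SE 0.29, 95% interval -0.56 to 0.74, adjusted p = 0.936, limma). It turned to -0.077 without control 2, to -0.01 without mutant 3 and to -0.083 with sample quality weights. The ratio of *Edn1* to *Nos3*, constrictor to dilator, was 0.351, 0.411 and 0.821 in controls and 0.707, 0.388 and 0.783 in mutants, which overlapped (exact permutation test, p = 0.8, adjusted 0.9 over the 7 ratios). Exons on the other strand cover 22.5% of its exonic bases. Its promoter window (chr13:42301226-42301475, forward strand) is shown because *Edn1* is a known repressed target of KLF2, and it held the CACCC box on the opposite strand at 197 to 193 and at 84 to 80 bases before the start, in capitals.
Edn1: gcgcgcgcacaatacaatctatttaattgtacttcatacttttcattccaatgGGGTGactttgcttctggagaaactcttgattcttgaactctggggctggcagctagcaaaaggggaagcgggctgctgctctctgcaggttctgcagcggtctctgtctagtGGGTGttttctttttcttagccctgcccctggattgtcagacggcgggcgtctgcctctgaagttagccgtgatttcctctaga

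*Ece1*, the gene of endothelin-converting enzyme 1 (chromosome 4 from 137589530 to 137692542, forward strand), had 18611, 17562 and 13828 normalized counts in controls and 13718, 16585 and 14760 in mutants. The groups overlapped, with 2 control libraries at the top. The log2 change was -0.19 (SE 0.17, 95% interval -0.57 to 0.19, adjusted p = 0.719, limma), the narrowest interval of the 9 genes, and turned to 0.047 when libraries were scaled to 5 EC genes.

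*Ednrb*, the gene of the endothelin B receptor (chromosome 14 from 104052053 to 104081900, reverse strand), was scarce and uneven. It had 63, 232 and 56 counts in controls and 0, 39 and 0 in mutants, or 52.4, 207 and 45.4 against 0, 46.5 and 0 normalized counts. Mutant 2 lay just above control 3, so the groups overlapped. In the libraries at 0, a count of 0 allows up to 2.27 and 4.26 normalized counts (3 counts, counting error only). The fitted log2 change of -5.14 (SE 2.29, 95% interval -10.35 to 0.06, adjusted p = 0.541, limma) depends on the small count added before the logarithm and was -2.73 with edgeR. Astrocytes also carry this receptor, and of 6 astrocyte markers 4 passed the filter. The sum of all 6 was 8776 to 9299 normalized counts in controls and 4731 to 6573 in mutant libraries, without overlap, most of it *Gja1*, which ECs also express. Of the defining markers, *Aqp4* had 64.9, 0 and 90.1 normalized counts in controls and 0 in all mutants, *Gfap* 243, 836 and 1.62 against 860, 126 and 0, and *Slc1a2* 161, 250 and 391 against 0, 71.6 and 18.4. *Ednrb* was highest in control 2 and in mutant 2 of their groups. *Gfap* was highest among controls in control 2, but among mutants in mutant 1, where *Ednrb* was 0. *Slc1a2* was highest among mutants in mutant 2, but among controls in control 3, where *Ednrb* was lowest. *Aqp4*, *Aldh1l1* and *Slc1a3* were at 0 in control 2, while *Aldh1l1* and *Gja1* were highest among mutants in mutant 2. The part of astrocyte RNA in the *Ednrb* counts was not tested.

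*Ace*, the gene of angiotensin-converting enzyme (chromosome 11 from 105858469 to 105880790, forward strand), had 194, 394 and 479 normalized counts in controls and 293, 347 and 617 in mutants. In each group the highest library had over 2 times the count of the lowest, and the groups overlapped. The log2 change was 0.08 with a wide error (SE 0.68, 95% interval -1.46 to 1.61, adjusted p = 0.983, limma), and it was -0.31 without control 1 and -0.13 without mutant 3. *Gm11651*, with 0 counts in each library, lies opposite 17% of its exonic bases.

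*Piezo1*, which encodes a cation channel opened by membrane stretch (chromosome 8 from 123208437 to 123278072, reverse strand), had 2093, 2589 and 1865 normalized counts in controls and 2884, 2157 and 2059 in mutants. The groups overlapped, with mutant 1 highest. The log2 change was 0.12 (SE 0.28, 95% interval -0.51 to 0.75, adjusted p = 0.908, limma), and it was -0.075 without mutant 1. Exons of *Ctu2*, a gene with 801 to 1826 counts per library, lie opposite 39.5% of its exonic bases.

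**Figure D3:**
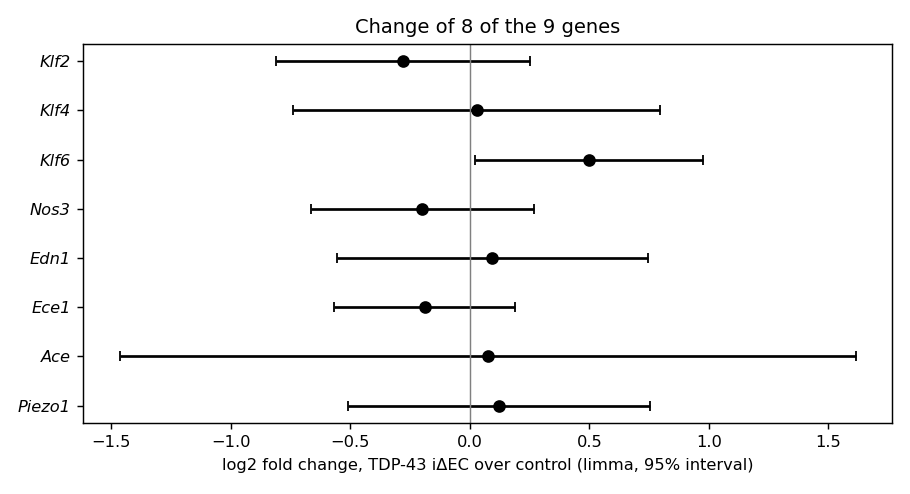
Log2 fold change of TDP-43 iΔEC over control mice (horizontal axis) with its 95% interval from limma (n = 3 samples each) for 8 of the genes, Ednrb being left out because its interval runs from -10.35 to 0.06. The interval of Klf6 alone (0.02 to 0.98) lies off 0, no gene passed the adjusted threshold, and the points of Nos3 and Ece1 cross 0 when libraries are scaled to 5 EC genes.

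The intervals of the 8 genes other than *Ednrb* show what size of change these libraries could bound under the main scaling (TMM) only. With scaling to 5 EC genes the log2 changes themselves moved up, to 0.047 for *Ece1*, 0.035 for *Nos3* and -0.046 for *Klf2*. For *Ece1* the limits were 0.674-fold and 1.14-fold, for *Nos3* 0.631-fold and 1.20-fold and for *Klf2* 0.570-fold and 1.19-fold. Those of *Ace* were 0.363-fold and 3.06-fold, so for *Ace* even large changes in either direction were within the error.

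Levels were compared between the genes per kilobase of exon (normalized counts divided by exonic length). In controls the order was *Ece1* at 2506 ± 378, *Nos3* at 2048 ± 429, *Edn1* at 1859 ± 556, *Klf2* at 1836 ± 126, *Klf6* at 1465 ± 245, *Klf4* at 1141 ± 350, *Piezo1* at 220 ± 37.3, *Ace* at 63.6 ± 26.2 and *Ednrb* at 22.6 ± 20.3 normalized counts per kb (SD, n = 3 samples). Of neighbours in that order, the libraries of *Klf2* and *Klf6*, of *Klf4* and *Piezo1*, and of *Piezo1* and *Ace* did not overlap, and the other 5 pairs did. In mutants *Klf6* stood second, at 2144 ± 321 normalized counts per kb, behind *Ece1* at 2258 ± 218 and before *Edn1* at 2028 ± 491, *Nos3* at 1827 ± 239 and *Klf2* at 1557 ± 267. Neighbours among the top 6 genes overlapped there, and the order of *Klf4*, *Piezo1*, *Ace* and *Ednrb* was as in controls with no overlap between neighbours.

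**Figure D4:**
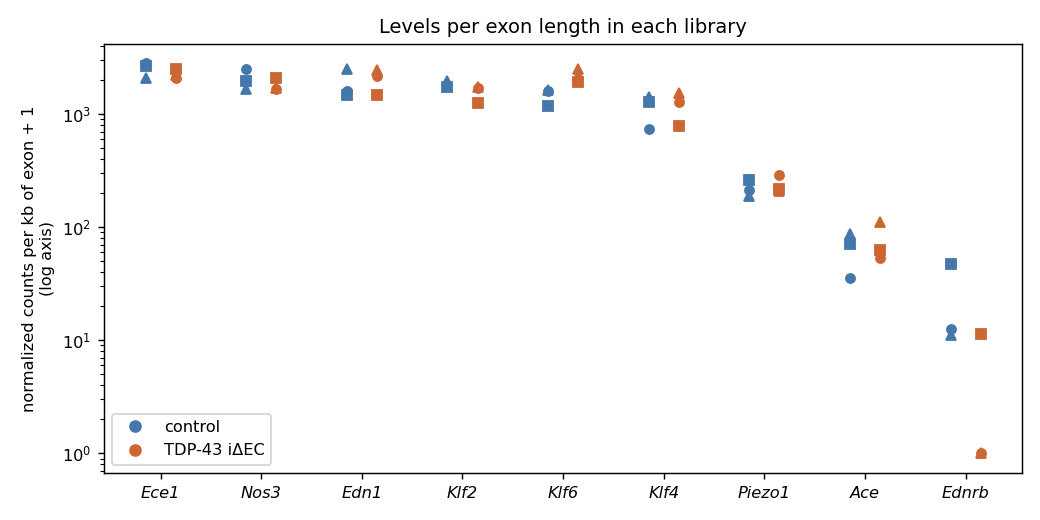
Level of each gene per kilobase of exon (vertical axis, normalized counts per kb plus 1, log scale) in the 6 libraries, ordered by the control mean, with the symbol giving the sample number. Levels run from 2506 for Ece1 to 22.6 for Ednrb in control mice, and the 2 TDP-43 iΔEC libraries without Ednrb counts sit at the foot of the axis.

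Genes with the most similar pattern were looked for by the Pearson correlation of log2 CPM over the 6 libraries, among 7750 genes. With 6 libraries that share their depth and scaling, these values describe a likeness only. The closest to *Klf6* were *Schip1* (0.995), *Fyttd1* (0.995) and *Dhx32* (0.992). Those for *Klf2* were *Mylpf*, *2010320M18Rik* and *Mrpl34*, at 0.985 to 0.991, and for *Klf4* *Uqcrb*, *Dyrk1a* and *Sar1b*, at 0.973 to 0.986. *Nos3* was closest to the tight junction gene *Cldn5* (0.988), then to *Cops7a* and *Sdhaf1*, while the list for *Ece1* held *Pxk* (0.981), *Thoc5* and *Eng*, which encodes the EC co-receptor endoglin. For *Edn1*, *Ednrb* and *Piezo1* they were *Lsm1*, *Wdr26* and *Ppp2ca* (*Edn1*, from 0.977), *Eif4b*, *Cdc23* and *Anapc5* (*Ednrb*, from 0.987) and *Thnsl2*, *Depdc5* and *Tmem168* (*Piezo1*, from 0.956). None of the 9 genes was among the 3 closest to another of them. *Nos3* and *Ece1* came nearest to each other, at 0.93, and *Nos3* and *Klf4* were furthest apart, at -0.86.

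The pathways around the 9 genes were read from 8 lists of 106 genes, of which 82 were tested. None of the 82 passed the adjusted threshold in limma, and 15 (18.3%, against 9.27% of all tested genes) had an unadjusted p under 0.05, 5 of them the immediate early genes above. DESeq2 called 4, *Stk24* beside *Hspa1a*, *Atf3* and *Ier3*, and edgeR called 0, with 9 at an unadjusted p under 0.05. Scaling to 5 EC genes, which raised the median of all genes to 0.23, also raised every list, and the values under it are given where a sign turned.

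Of the 14 other KLF genes 8 were tested, with a median log2 change of -0.20 (0.05 with scaling to 5 EC genes). *Klf13* had the highest mean, 8103 ± 2315 normalized counts in controls and 6530 ± 995 in mutants (SD, n = 3 samples each), with a log2 change of -0.30 (SE 0.25). Only *Klf12* had an unadjusted p under 0.05 (log2 fold change -1.34, limma), with overlapping groups.

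The list upstream of *Klf2* and *Klf4* holds the MEKK3, MEK5 and ERK5 kinases, the MEF2 factors and the CCM complex, which restrains this cascade in ECs. Of its 15 genes 14 were tested, 7 above and 7 below 0, with a median of 0.01 (11 and 3, with a median of 0.28, with scaling to 5 EC genes). *Heg1*, the transmembrane partner of the CCM protein KRIT1, had both the highest mean and the lowest p of the list, with 21875, 25472 and 18866 normalized counts in controls and 14432, 17561 and 14309 in mutants. All mutant libraries lay below all controls, as in 7.10% of tested genes, and the log2 change was -0.55 (SE 0.16, unadjusted p = 0.00773, adjusted p = 0.360, limma). *Stk24*, which encodes a kinase that binds the CCM protein PDCD10, had 562 to 983 normalized counts in controls and 112 to 250 in mutants, a log2 change of -1.85 (unadjusted p = 0.0524, limma; adjusted p = 0.0249 with DESeq2). The kinase genes *Map3k3*, *Map2k5* and *Mapk7* had log2 fold changes of -0.34, -0.01 and -0.24, and *Mef2a*, *Mef2c* and *Mef2d* of 0.29, 0.08 and 0.02, and with scaling to 5 EC genes *Map2k5* turned to 0.29 and *Mapk7* to 0.011. *Stk24*, the kinases and the MEF2 factors were named after their values had been seen.

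Of 13 genes induced by laminar flow or by KLF2 and KLF4, 10 were tested, 5 above and 5 below 0, with a median of 0.05 (7 and 3, with 0.28, with scaling to 5 EC genes). *Palmd*, the most abundant, had 31184 ± 3534 and 28205 ± 416 normalized counts (SD, n = 3 samples each) and a log2 change of -0.18 (SE 0.13; 0.060 with scaling to 5 EC genes). *Tek*, the angiopoietin receptor gene, had 18475, 17133 and 17798 normalized counts in controls and 13433, 15508 and 14483 in mutants. It did not overlap between the groups (log2 fold change -0.35, SE 0.14, adjusted p = 0.513, limma). The oxidative stress gene *Nqo1* had 139, 0 and 22.7 against 525, 179 and 803 normalized counts, without overlap (adjusted p = 0.513, limma). *Thbd*, the thrombomodulin gene, had a log2 change of -0.02 (0.19 with scaling to 5 EC genes) and was named after its value had been seen.

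In the nitric oxide pathway 18 of 20 genes were tested, 5 above and 13 below 0, with a median log2 change of -0.36 (8 and 10, with -0.11, with scaling to 5 EC genes). Of the 18, 3 had an unadjusted p under 0.05 (limma) with groups apart. Of all tested genes, 9.27% had such a p and 15.0% had groups apart. *Slc7a1*, the gene of the arginine carrier that feeds nitric oxide synthesis, had 32195, 22805 and 20406 normalized counts in controls and 16681, 14961 and 11059 in mutants, with no overlap (log2 fold change -0.82, SE 0.23, adjusted p = 0.334, limma). The citrulline-recycling gene *Ass1* was higher, at 394, 0 and 166 against 851, 751 and 1054 normalized counts (adjusted p = 0.516, limma). *Gucy1b1*, a subunit of the nitric oxide receptor found in mural cells, was lower, at 657, 692 and 520 against 1.52, 411 and 46.8 normalized counts (adjusted p = 0.488, limma). The 8 mural markers summed to 26242 to 44936 normalized counts in controls and 19755 to 47279 in mutant libraries, which overlapped. Mutant 2 had the highest sum of the mutants, as it had for *Gucy1b1*, and control 2 had the lowest sum and the most *Gucy1b1* of the controls. *Pdgfrb* and *Kcnj8* were at 0 in control 2, *Kcnj8* in mutant 1 and *Cspg4* in mutant 3, while *Acta2*, *Cspg4*, *Tagln* and *Myh11* were highest of the controls in control 2. The part of mural RNA in the *Gucy1b1* counts was not tested. *Hsp90ab1*, the chaperone gene with the highest mean of the list, had a log2 change of 0.17 (SE 0.11).

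Of 6 further endothelin genes only the ligand gene *Edn3* and the receptor gene *Ednra* were tested. *Edn3* had 1727 ± 565 normalized counts in controls and 1120 ± 59.1 in mutants (SD, n = 3 samples each), a log2 change of -0.61 (SE 0.38, adjusted p = 0.614, limma). Of 11 angiotensin and kinin genes, 6 had no count in any library, among them *Ren1* and the angiotensin receptor genes *Agtr1a*, *Agtr1b* and *Agtr2*, where 3 counts would equal 2.27 to 4.26 normalized counts. The 5 tested had a median of -0.55, and the aminopeptidase gene *Lnpep*, the most abundant, also had -0.55 (SE 0.35).

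Of 12 flow sensors and channels 10 were tested, 5 above and 5 below 0, with a median of -0.03 (6 and 4, with 0.21, with scaling to 5 EC genes). *Flt4*, which encodes VEGF receptor 3, had 8303, 7993 and 5422 normalized counts in controls and 5308, 4881 and 2888 in mutants, with no overlap (log2 fold change -0.73, SE 0.28, adjusted p = 0.488, limma). *Piezo2*, the relative of *Piezo1*, was higher in every mutant library, at 690, 689 and 390 against 1205, 1070 and 1083 normalized counts (log2 fold change 0.96, SE 0.42, adjusted p = 0.536, limma). *Cdh5*, the VE-cadherin gene and most abundant of the list, had a log2 change of -0.09 (SE 0.19; 0.15 with scaling to 5 EC genes).

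**Figure D5:**
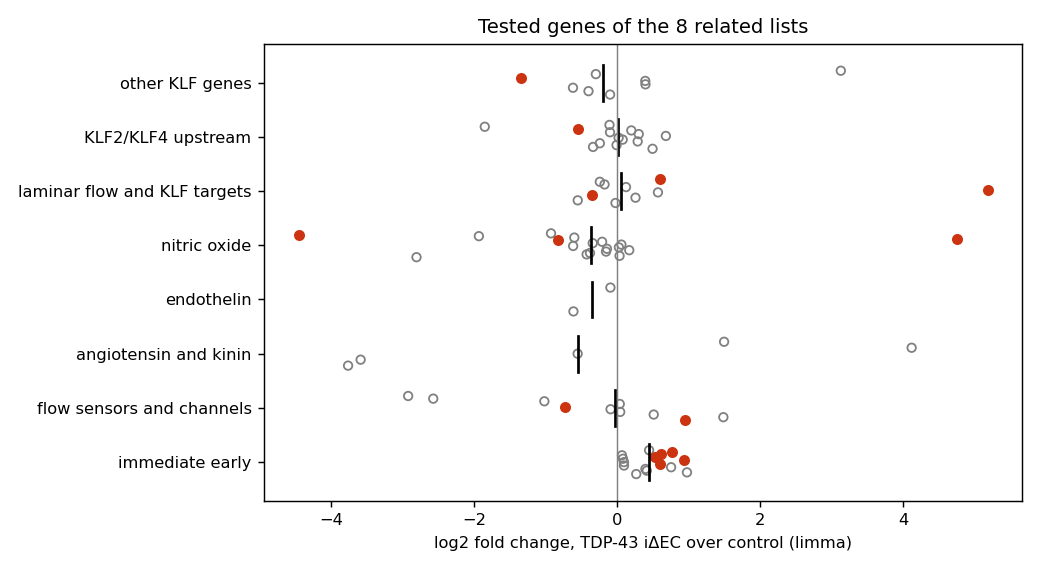
Log2 fold change of TDP-43 iΔEC over control mice from limma (horizontal axis) for each tested gene of the 8 lists, with filled red points for an unadjusted p under 0.05, open points for the others and a bar at the median. All 15 immediate early genes lie above 0 with a median of 0.45, the nitric oxide list has a median of -0.36 (-0.11 when libraries are scaled to 5 EC genes), and none of the 82 genes passed the adjusted threshold.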

How the data were processed

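Sorted spinal cord ECs of P16 mice were sequenced with SMARTseq2, which copies polyadenylated RNA and amplifies it by PCR. The number of PCR cycles per library is not given in the sources used here, and no molecular identifiers are described, so limits drawn from counts cover counting error only. The authors aligned reads to GRCm39 with STAR 2.7.8a and GENCODE M30 and deposited estimated counts per gene from RSEM 1.3.0 with default options, which use no strand, which are whole numbers and not normalized (0 sample columns had no condition).

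From these counts, limma 3.58.1 (voom, TMM, filterByExpr of edgeR 4.0.16, in R 4.3.3) compared 3 control with 3 mutant samples, with Benjamini-Hochberg adjustment over 13107 genes at 0.05. Normalized counts are counts over the size factors of DESeq2 1.42.0. Tests were two-sided. The limma test was run on simulated counts of 3 against 3 samples with 4-fold changes. It called 39 of 186 changed genes that were tested, and 39 of 109 with a mean of at least 3 log2 CPM. In simulated counts without changes it called 0 genes. Most 4-fold changes were thus missed in the simulation, so a gene that did not pass is not shown to be unchanged. Samples were grouped by the genotype in the labels. Positions and exon lengths are from GENCODE M39, which matched 98.7% of identifiers, and 8 of the 9 genes had a RefSeq promoter.

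Named genes are the 9 members, *Tardbp*, per list the most abundant gene and up to 3 genes with the lowest unadjusted p under 0.05 whose groups did not overlap, and per member the 3 most correlated genes with a mean of at least 3 log2 CPM. The most correlated genes of *Ace* are not reported here. The members and lists were chosen with earlier results of these data known. Alternatives changed the scaling, the filter, the test, the threshold, the pairing or the libraries used.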

Additional observations from a re-analysis of the deposited data

How the results depend on the processing

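None of the 9 genes passed the adjusted threshold under any alternative, the lowest adjusted p being 0.181 (*Klf6*, DESeq2). Of 143 log2 fold changes of single genes under alternatives, 132 kept their sign and 11 turned, none of those turned above 0.31 in size. Leaving out 1 sample moved *Klf4* from -0.25 (without control 1) to 0.28, *Edn1* from -0.077 (without control 2) to 0.34, *Ace* from -0.31 (without control 1) to 0.39 and *Piezo1* from -0.075 (without mutant 1) to 0.22. *Klf4* also turned without mutants 1 (-0.08) or 3 (-0.11), *Edn1* and *Ace* without mutant 3 (-0.01 and -0.13), *Edn1* with sample quality weights (-0.083), and *Nos3* (0.035) and *Ece1* (0.047) with scaling to 5 EC genes. That scaling moved the median of all genes to 0.23 and scaling by library size moved it to 0.18. Relative to the median *Klf6* was at 0.51 to 0.52, *Nos3* at -0.18 to -0.19 and *Ece1* at -0.17 to -0.18 under these scalings. Scaling shifts all genes nearly alike, so these steady values were fixed in advance and show no robustness. With sample quality weights they were 0.48 (*Klf6*), -0.088 (*Nos3*) and -0.038 (*Ece1*). *Klf6* ranged from 0.33 to 0.74 over 16 alternatives. The number of all genes past the threshold was 18 and became 31 at an adjusted p under 0.1, 10 with library size scaling, 1 with scaling to 5 EC genes, 76 without a filter, 39 with at least 10 counts in every library, 0 with edgeR (848 at an unadjusted p under 0.05) and 466 with DESeq2, and 0 to 13 when 1 sample was left out (0 without mutant 1, with 960 at an unadjusted p under 0.05 in limma, 2 and 3 without mutants 3 and 2, 3 without control 1, 10 without control 2). Apart from fewer samples or the altered filter, the cause was not tested. Genes of the 8 lists past the threshold numbered 0, but 4 with DESeq2. Deviations of same-numbered samples correlated at -0.07, -0.13 and -0.02. These values gave no sign of pairing by number, but with 3 samples per group they cannot exclude a pairing. The replicate block gave 22 genes past the threshold, 0 of the 9 genes and a *Klf6* log2 change of 0.50. Low counts limit *Ednrb*, which did not have 10 counts in every library. It had 0 counts in mutant 1 (45010088 counts in total) and 39 in mutant 2 (28228980 in total).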
